A study of Solanum lycopersicum with 18 samples.

Results

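Ascorbate peroxidases (APX), catalases and superoxide dismutases (SOD) were followed in tomato leaves before and after heat stress (HS). The genes were fixed by a list of identifiers with no filter on their values, but the list was chosen with earlier results of these data known. It held 10 of the 35821 genes in the count table, of which 4 were APX genes, 3 catalase genes and 3 SOD genes. RNA-seq was performed on Moneymaker plants aged 4 weeks, of which the fourth leaf was taken; growth was at 24 °C with 16 h of light. Plants were kept at 45 °C for 1 h or 0 h. The genotypes were CS2 and CS3, 2 lines that carry a hairpin RNA against the heat stress factor gene HSFA1A (knock-down lines, so that the gene itself is intact), and the wild type (WT) of the same cultivar. Each of the 6 conditions had 3 libraries in the table, and biological replicates were pools of seedlings, as the methods describe them. The promoter of the hairpin construct is not given in the sources used here, and the names CS2 and CS3 are those of the count table, whereas the sample labels number the lines.

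These enzymes form the first defence of the plant cell against reactive oxygen. SODs convert superoxide into hydrogen peroxide and oxygen, with separate enzymes in the cytosol, the chloroplast and the mitochondrion. Hydrogen peroxide is then removed by catalases, which split it without a reductant and in leaves work mainly in peroxisomes, and by APX enzymes, which reduce it with ascorbate in the cytosol and in organelles. The oxidised ascorbate is brought back by monodehydroascorbate and dehydroascorbate reductases, and the glutathione used on the way by glutathione reductase. Heat raises the production of reactive oxygen in leaves, and in Arabidopsis a cytosolic APX gene is a known target of heat stress factors.

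The table gives identifiers without names, so the RefSeq gene symbols (assembly SLM_r2.1) were placed on its rows by the order of neighbouring genes, which named 7 of the 10 genes. APX1 (Solyc06g005160.4) and APX2 (Solyc06g005150.3), the cytosolic enzymes of tomato, lie next to each other on chromosome 6, at 196930 to 200197 on the plus strand and at 184095 to 187342 on the minus strand, with 9587 bases and no other gene of the table between them (coordinates of the M82 annotation used by the authors). APX6 (Solyc11g018550.4, with the RefSeq synonym TAPX) was on chromosome 11 and APX7 (Solyc06g060260.3) on chromosome 6. CAT2 (Solyc02g082760.3) was on chromosome 2. SODCC.1 (Solyc01g067740.3), the cytosolic copper/zinc SOD, was on chromosome 1, and SODCP.2 (Solyc11g066390.2), the chloroplast copper/zinc SOD, was on chromosome 11. The catalases Solyc12g094620.3 on chromosome 12 and Solyc04g082460.4 on chromosome 4 and the SOD Solyc06g049080.3 on chromosome 6 could not be placed and are known here only by their family. None of the 10 genes shared bases with another gene of the table on its own strand. Only Solyc04g082460.4 shared bases with a gene on the other strand (1 gene). Reads that fit APX1 and APX2, or several catalases, equally well would have been lost with the mapping quality filter, so that the split between close copies carries this uncertainty.

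Library totals were 1713285 to 3669618 counts in CS2, 1792234 to 2334560 in CS3 and 2087511 to 2393059 in WT at 1 h, and 3415113 to 3643803 in CS2, 2762831 to 3529639 in CS3 and 2676951 to 3525858 in WT at 0 h, so that depth was lower at 1 h in all libraries but CS2 1 h replicate 3. One library stood apart, CS3 0 h replicate 2, whose mean correlation with the other replicates of its condition was 0.892, against 0.917 to 0.971 for the other 17 libraries (log2 of normalised counts over the tested genes). All 18 leaf markers that could be placed (chlorophyll a-b binding proteins and a Rubisco small subunit) had counts in every library, with summed levels of 4420 to 8230 counts per 1000000 (CPM) at 1 h and 3650 to 5000 CPM at 0 h, and the ripe-fruit polygalacturonase gene PG2 had 0 counts in every library. The other fruit marker placed, the phytoene synthase gene Psy1, had 210 to 587 counts per library. The paper reports that the hairpin lowers HSFA1A expression, citing earlier work and a supplementary figure. In the counts used here, HSFA1A itself was not lower in the lines. Its level was 86.9 to 122 CPM in CS2, 96.9 to 133 CPM in CS3 and 61.9 to 78.1 CPM in WT at 1 h, and 62.2 to 72.8, 67.4 to 90.3 and 66.6 to 84.5 CPM in the same order at 0 h. At 1 h it was above WT by 0.60 ± 0.16 (log2, SE) for CS2 and by 0.72 ± 0.16 for CS3 (adjusted p = 0.00672 and 0.00303 in edgeR's quasi-likelihood test). Reads of the hairpin cannot be told apart from reads of the gene in these counts, so CS2 and CS3 below stand for the libraries labelled so, and a direction against WT is one between labels.

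Levels are given as CPM (counts scaled to a common library size adjusted by TMM), and levels of different genes are set beside each other only as CPM per kb of gene span, introns included, since the table gives no transcript length. Without HS the catalase Solyc12g094620.3 led the order per kb of span, with 103 ± 8.33 CPM per kb in CS2, 114 ± 9.33 in CS3 and 104 ± 19.5 in WT (SD, n = 3). CAT2 came next with 78.8 ± 7.69, 78.7 ± 7.74 and 86.3 ± 12.1 CPM per kb, and its libraries overlapped with those of Solyc12g094620.3 in WT only. After 1 h of HS the order of these 2 catalases per kb of span was turned round in all genotypes: CAT2 had 147 ± 29.9 CPM per kb in CS2, 126 ± 15.4 in CS3 and 111 ± 4.64 in WT, and Solyc12g094620.3 had 76.6 ± 15.7, 73.0 ± 5.82 and 77.6 ± 7.96. This turn rests on dividing by spans of 4398 bases for CAT2 and 2443 for Solyc12g094620.3. In CPM, CAT2 was the higher in every library at both times. At 0 h it had 308 to 371 CPM in CS2, 314 to 382 in CS3 and 330 to 436 in WT. Solyc12g094620.3 had 228 to 267, 258 to 303 and 213 to 305 CPM in the same order. Without transcript lengths the order of transcript numbers cannot be told. The ratio of CAT2 to Solyc12g094620.3 within a library, per kb, was 1.34 to 2.13 in the 9 libraries at 1 h and 0.668 to 1.01 in the 9 libraries at 0 h, with no overlap. Among the other genes at 0 h in WT, Solyc06g049080.3 (30.7 ± 2.92 CPM per kb) and APX1 (29.2 ± 1.89) overlapped with each other, as did SODCC.1 (15.3 ± 1.92) with APX2 (14.3 ± 1.16) and APX6 (11.4 ± 1.10) with SODCP.2 (10.8 ± 2.31). APX7 (6.03 ± 0.99) and the catalase Solyc04g082460.4 (1.13 ± 0.323) were the lowest. After HS, APX1 stood second in the order in CS2 and CS3, with 85.0 ± 11.9 and 85.8 ± 4.41 CPM per kb, where APX1 and Solyc12g094620.3 overlapped in CS2. In WT it stood behind both catalases, with 47.4 ± 5.41.

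**Figure D1:**
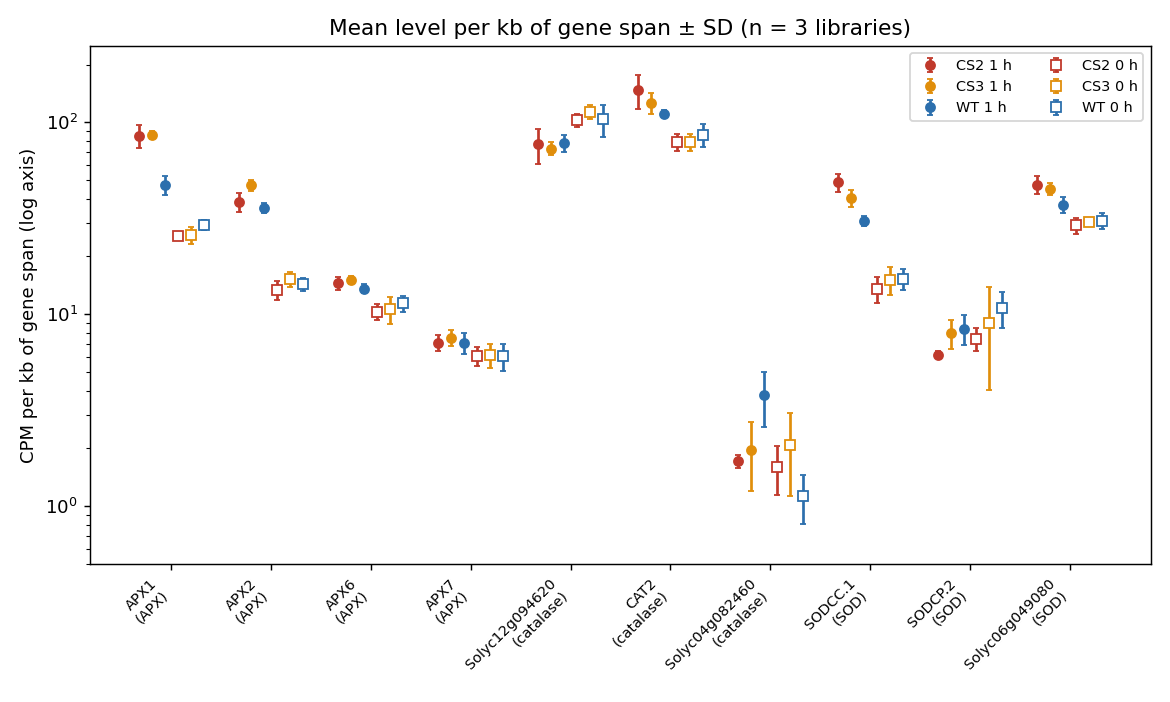
Mean level of each of the 10 genes per kb of gene span on a log axis, with the SD over 3 libraries as the bar; filled circles are 1 h at 45 °C, open squares 0 h, and colours mark CS2, CS3 and WT. Per kb of gene span, the catalase Solyc12g094620.3 is above CAT2 in the open squares and below it in the filled circles. In CPM, CAT2 is the higher in every library.

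**Figure D2:**
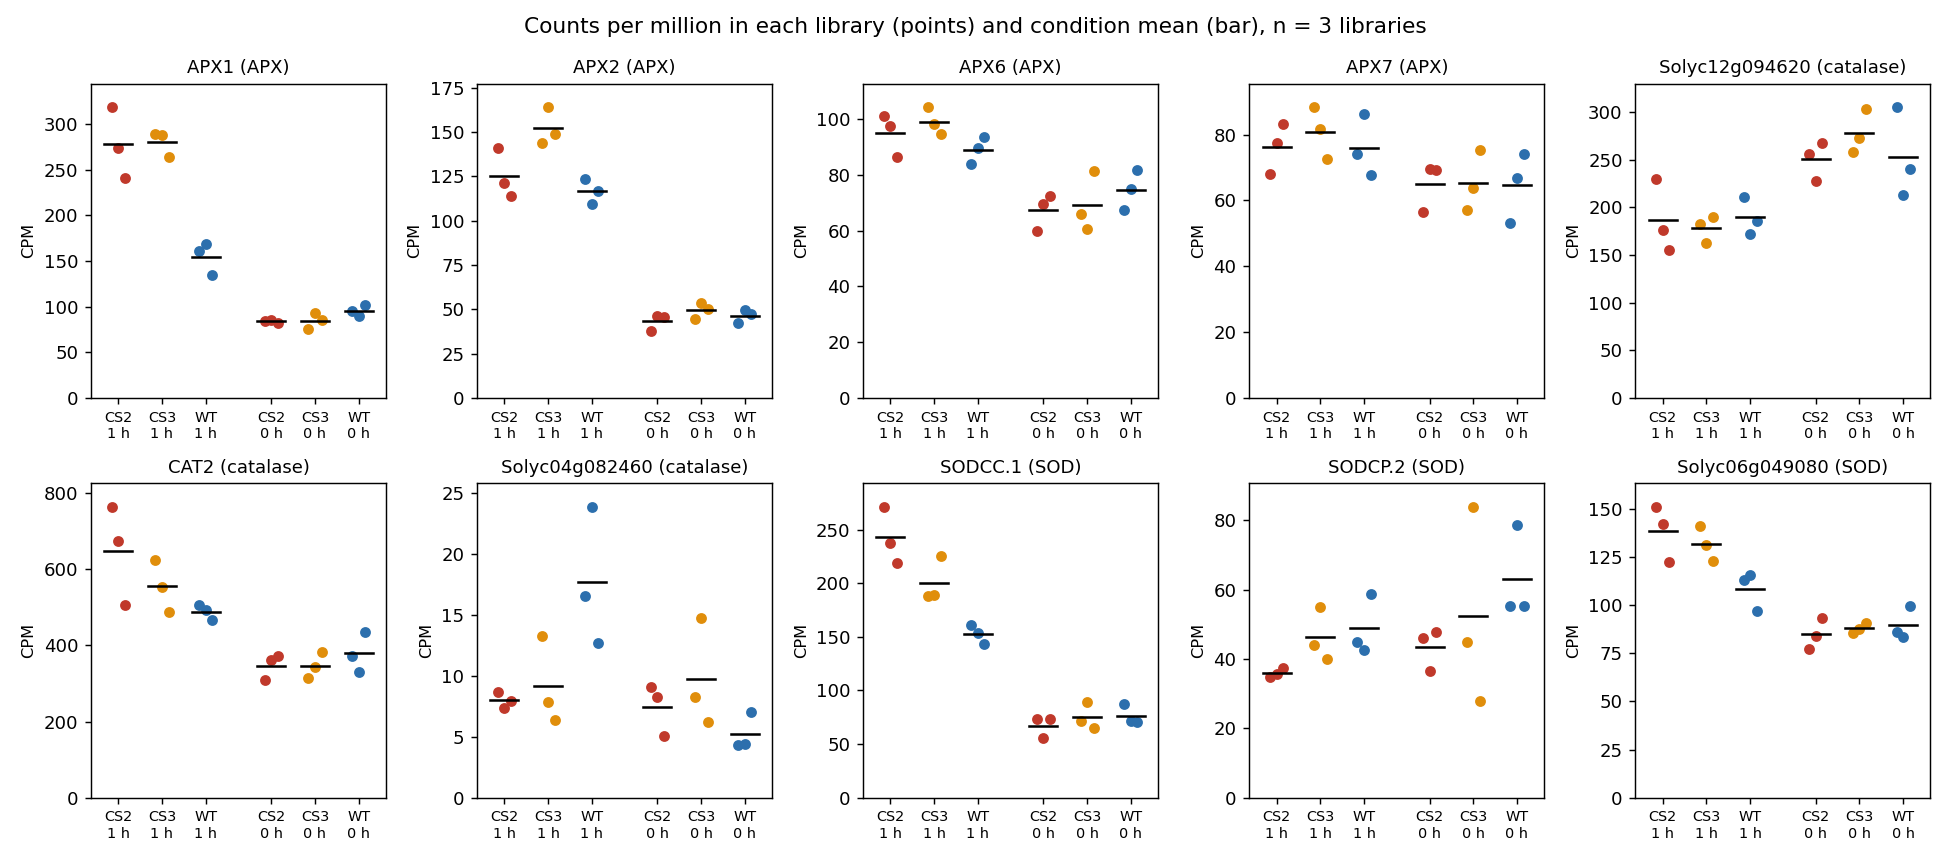
Level in CPM in each library (points) with the condition mean (bar), with 3 libraries per condition, 1 h on the left and 0 h on the right of each panel. APX1 at 1 h is at 241 to 319 CPM in CS2 and 264 to 289 CPM in CS3, above the 135 to 168 CPM of WT.

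The first comparison asked how these genes respond to HS in each genotype. Of the 10 genes, 9 passed the filter on low counts (at least 50 counts in at least 2 libraries) and were tested; the catalase Solyc04g082460.4 is described apart below. Called genes had an adjusted p below 0.05 in edgeR's quasi-likelihood test, with Benjamini-Hochberg adjustment over all 15312 tested genes, and all adjusted p-values given are of this test unless another is named. In CS2, 6 of 9 rose with HS and 1 fell, against 28.7% higher and 26.2% lower among all tested genes. In CS3 the counts were also 6 and 1, against 26.7% and 26.5%. In WT, 3 rose and 1 fell, against 24.2% and 25.2%. The median log2 fold change of the 9 genes was 0.70 in CS2, 0.58 in CS3 and 0.28 in WT, whereas that of all tested genes was 0.00247, -0.0047 and 0.00231 in the same order. The scaling matters for this contrast: with library totals alone the median of all tested genes was -0.18 in CS2, -0.19 in CS3 and -0.14 in WT, and the genes called higher and lower numbered 3154 and 5383 in CS2, 2832 and 5389 in CS3 and 2685 and 4766 in WT, in place of 4397 and 4011, 4086 and 4065, and 3701 and 3862. None of the 9 genes changed its call or sign in the HS comparisons under that scaling. In RNA of whole leaves, fewer cells of a type and less RNA per cell cannot be told apart.

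Among the SODs, the cytosolic SODCC.1 had the clearest response. It had 271, 238 and 219 CPM in CS2 at 1 h, against 73.1, 55.3 and 73.4 CPM at 0 h. In CS3 it had 188, 189 and 225 CPM at 1 h, against 71.5, 89.2 and 64.7 CPM at 0 h. In WT it had 161, 153 and 143 CPM at 1 h, against 87.3, 71.1 and 70.3 CPM at 0 h. All 9 libraries at 1 h were above all 9 at 0 h. The log2 fold change was 1.85 ± 0.14 (SE) in CS2, 1.42 ± 0.14 in CS3 and 1.00 ± 0.14 in WT (adjusted p = 1.05e-08, 2.79e-07 and 1.72e-05), or 3.6-fold, 2.68-fold and 2-fold. 

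The SOD Solyc06g049080.3, whose compartment is not annotated in the sources, moved less. It had 151, 142 and 122 CPM at 1 h against 77.3, 84.1 and 93.1 CPM at 0 h in CS2, a rise of 0.70 ± 0.11 (log2, adjusted p = 5.97e-05). In CS3 it had 141, 131 and 123 CPM at 1 h against 85.6, 87.4 and 90.8 CPM at 0 h, a rise of 0.58 ± 0.12 (adjusted p = 0.000434). In WT the libraries overlapped, with 113, 116 and 97.0 CPM at 1 h and 86.0, 83.6 and 99.4 CPM at 0 h, and the log2 fold change of 0.28 ± 0.12 did not pass (adjusted p = 0.0558). It passed in WT without WT 0 h replicate 3 (0.34, adjusted p = 0.0366) or without WT 1 h replicate 3 (0.35, adjusted p = 0.0325), and was at 0.23 to 0.25 without each of the other WT libraries (adjusted p = 0.132 to 0.174). With library totals alone it was 0.13 (adjusted p = 0.292) and with upper quartile scaling 0.16 (adjusted p = 0.23).

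The chloroplast SODCP.2 did not pass the test in any genotype. It had 34.8, 35.8 and 37.4 CPM at 1 h in CS2, against 46.1, 36.4 and 47.7 CPM at 0 h. In CS3 it had 43.9, 55.1 and 40.2 CPM at 1 h, against 44.9, 83.9 and 28.0 CPM at 0 h, where the highest value belonged to CS3 0 h replicate 2, the library that stood apart. In WT it had 45.0, 42.7 and 58.8 CPM at 1 h, against 55.3, 78.6 and 55.2 CPM at 0 h. The libraries overlapped in all genotypes, and the log2 fold changes were -0.26 ± 0.28, -0.17 ± 0.28 and -0.37 ± 0.27 in CS2, CS3 and WT (adjusted p = 0.441, 0.627 and 0.273). Without CS3 0 h replicate 2 the CS3 value had the other sign, 0.33 (adjusted p = 0.21).

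**Figure D3:**
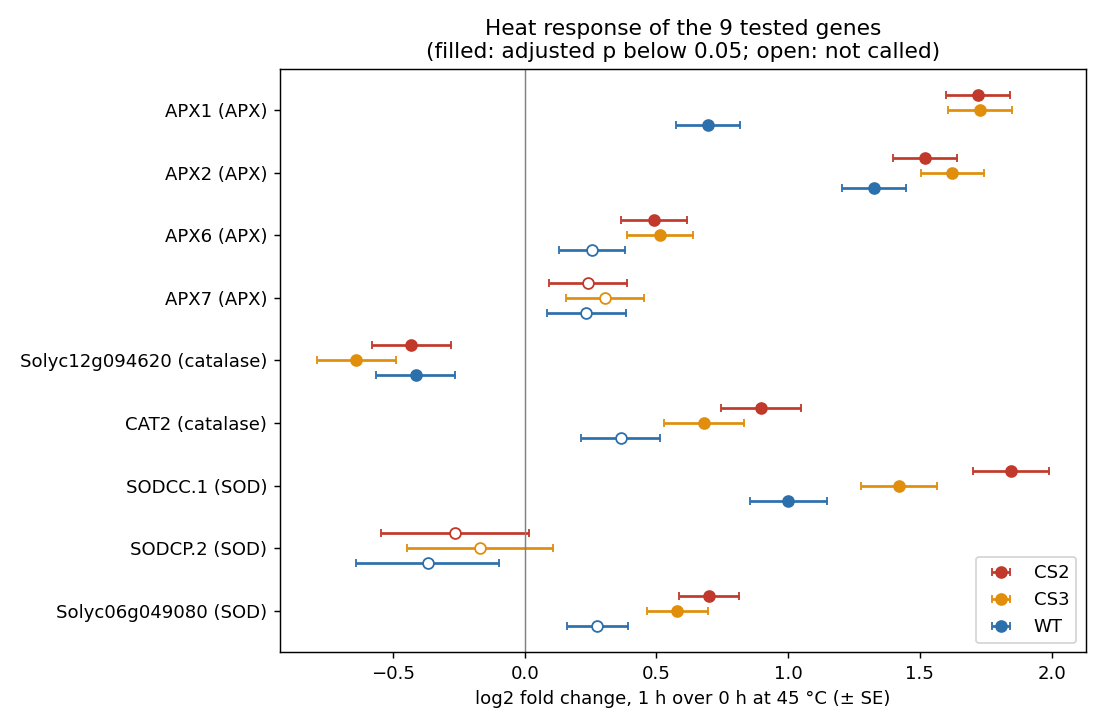
Log2 fold change of 1 h over 0 h at 45 °C with its SE for the 9 tested genes in CS2, CS3 and WT; filled points passed an adjusted p of 0.05. APX1, APX2 and SODCC.1 rose in all genotypes, and the catalase Solyc12g094620.3 fell in all.

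The 2 neighbouring cytosolic APX genes rose in all genotypes. APX1 had 319, 273 and 241 CPM at 1 h in CS2, against 84.1, 85.7 and 82.1 CPM at 0 h. In CS3 it had 289, 288 and 264 CPM at 1 h, against 75.5, 92.7 and 85.8 CPM at 0 h. In WT it had 161, 168 and 135 CPM at 1 h, against 95.1, 89.7 and 102 CPM at 0 h. The groups did not overlap in any genotype, and the highest WT library at 1 h was below the lowest library of each line at 1 h. APX1 thus rose by 1.72 ± 0.12 (log2) in CS2, 1.73 ± 0.12 in CS3 and 0.70 ± 0.12 in WT (adjusted p = 2.69e-09, 2.51e-09 and 0.000126), or 3.30-fold, 3.31-fold and 1.62-fold.

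APX2 had the largest WT response among the 9 genes. It had 141, 121 and 114 CPM at 1 h in CS2, 144, 164 and 149 CPM in CS3 and 124, 109 and 117 CPM in WT. Without HS it stood at 38.0, 46.3 and 46.0 CPM in CS2, 44.6, 53.4 and 50.4 CPM in CS3 and 42.2, 49.5 and 47.5 CPM in WT. Every library at 1 h was above every library at 0 h, and WT and CS2 overlapped at both times. It rose by 1.52 ± 0.12 in CS2, 1.62 ± 0.12 in CS3 and 1.33 ± 0.12 in WT on the log2 scale (adjusted p = 1.25e-08, 4.5e-09 and 6.87e-08). APX1 and APX2 changed in different proportion: the ratio of APX1 to APX2 per kb was 2.11 to 2.25 in CS2, 1.75 to 2.00 in CS3 and 1.15 to 1.53 in WT at 1 h, and 1.77 to 2.20 in CS2, 1.68 to 1.73 in CS3 and 1.80 to 2.24 in WT at 0 h. In WT the ratio was thus lower in every library at 1 h than in any at 0 h, whereas in CS2 and CS3 it was not.

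The other APX genes moved little. APX6 had 101, 97.5 and 86.5 CPM at 1 h in CS2 against 59.9, 69.4 and 72.5 CPM at 0 h, and 104, 98.2 and 94.5 CPM at 1 h in CS3 against 65.9, 60.4 and 81.5 CPM at 0 h, without overlap. In WT it had 83.8, 89.4 and 93.5 CPM at 1 h against 67.4, 74.7 and 81.7 CPM at 0 h, which also did not overlap although the test did not pass. Its log2 fold changes were 0.49 ± 0.12 in CS2, 0.51 ± 0.12 in CS3 and 0.26 ± 0.12 in WT (adjusted p = 0.00276, 0.00229 and 0.0978). APX7 was between 53.1 and 88.4 CPM in all 18 libraries, with log2 fold changes of 0.24 in CS2 (95% interval -0.07 to 0.55), 0.31 in CS3 (-0.01 to 0.62) and 0.23 in WT (-0.08 to 0.55). The APX genes together held 574 ± 52.3 CPM in CS2, 613 ± 28.9 CPM in CS3 and 436 ± 21.2 CPM in WT at 1 h (SD, n = 3), and 260 ± 18.4, 269 ± 25.0 and 281 ± 23.7 CPM in the same order at 0 h.

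The catalases did not move together. CAT2 had 764, 675 and 505 CPM at 1 h in CS2, against 308, 361 and 371 CPM at 0 h, a rise of 0.90 ± 0.15 (log2, adjusted p = 8.44e-05). In CS3 it had 624, 552 and 488 CPM at 1 h, against 314, 342 and 382 CPM at 0 h, a rise of 0.68 ± 0.15 (adjusted p = 0.00116). In WT it had 506, 493 and 466 CPM at 1 h, against 373, 330 and 436 CPM at 0 h. These groups did not overlap either, but the log2 fold change of 0.36 ± 0.15 lay just outside the threshold (adjusted p = 0.0533), and it passed in DESeq2 (0.36, adjusted p = 0.0365), in a fit of the WT libraries only (0.35, adjusted p = 0.0245) and without WT 0 h replicate 3 (0.46, adjusted p = 0.0323). It was 0.27 to 0.40 without each of the other WT libraries (not called, adjusted p of up to 0.202), 0.22 with library totals alone (adjusted p = 0.158) and 0.25 with upper quartile scaling (adjusted p = 0.156).

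Solyc12g094620.3 was the only tested gene that fell. It had 230, 176 and 155 CPM at 1 h in CS2, against 256, 228 and 267 CPM at 0 h, where 1 library at each time overlapped. In CS3 it had 183, 162 and 190 CPM at 1 h, against 258, 273 and 303 CPM at 0 h. In WT it had 211, 172 and 186 CPM at 1 h, against 305, 213 and 240 CPM at 0 h. It fell by 0.43 ± 0.15 in CS2, by 0.64 ± 0.15 in CS3 and by 0.41 ± 0.15 in WT on the log2 scale (adjusted p = 0.021, 0.00181 and 0.0287). The call in CS3 held without each library in turn. In WT it was lost without WT 0 h replicate 1 (-0.26, adjusted p = 0.181), WT 1 h replicate 2 (-0.35, adjusted p = 0.11) or WT 1 h replicate 3 (-0.40, adjusted p = 0.0729). In CS2 it was lost without CS2 0 h replicate 1 or 3, or CS2 1 h replicate 2 or 3 (-0.31 to -0.41, adjusted p = 0.0535 to 0.109).

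Because the authors removed duplicate reads, a gene can gain counts only up to a limit set by its length. Measured by gene span, the 2 abundant catalases came nearest to it, with counts of up to 0.405 per base of gene span in CAT2 and 0.403 in Solyc12g094620.3, against 0.260 in APX1 and 0.155 or less in the other genes. The span includes introns, so the order of the genes by transcript length may differ and was not tested. With counts corrected for positions that can be counted once, the same number of genes was called in each HS comparison (7, 7 and 4 in CS2, CS3 and WT), but against WT at 1 h the call of SODCC.1 in CS3 was lost (0.39, adjusted p = 0.0614), which left 2 of 3. Transcript lengths were not available to this correction either, so it cannot show that the calls hold when introns are left out.

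The second comparison asked whether the lines differed from WT after 1 h of HS. In CS2, 4 of the 9 genes were higher than in WT and none was lower, against 17.8% higher and 15.3% lower among all tested genes. In CS3, 3 were higher and none lower, against 11.9% and 12.4%. The median log2 difference of the 9 genes was 0.10 in CS2 and 0.18 in CS3, against 0.04 and 0.03 for all tested genes. APX1 and SODCC.1 were higher than WT in both lines, CAT2 and Solyc06g049080.3 in CS2 and APX2 in CS3; the lines share the WT libraries, so that these are not independent results.

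APX1, with the values given above, was higher by 0.84 ± 0.12 (log2) in CS2 and by 0.86 ± 0.12 in CS3 than in WT at 1 h (adjusted p = 3.34e-05 and 5.71e-05), or 1.79-fold and 1.81-fold. Its rise with HS was larger than in WT by 1.03 ± 0.17 in CS2 and by 1.03 ± 0.17 in CS3, on the log2 scale (test of the interaction, adjusted p = 0.000461 and 0.00111). This call held in each alternative and without each library in turn, from 0.89 to 1.12 for CS2 and from 0.94 to 1.10 for CS3. For this test 2 of the 9 genes had a larger response in CS2, against 10.4% of all tested genes, and 1 in CS3, against 4.96%; none had a smaller response, against 9.35% and 5.3%.

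SODCC.1 was the other gene of the interaction in CS2. At 1 h it was higher than in WT by 0.66 ± 0.14 in CS2 (adjusted p = 0.00132) and by 0.40 ± 0.14 in CS3 (adjusted p = 0.0484). Its libraries did not overlap with those of WT in either line, with 219 to 271 CPM in CS2, 188 to 225 CPM in CS3 and 143 to 161 CPM in WT. The CS3 call was lost without any one of the 6 libraries compared, with differences of 0.30 to 0.44 (adjusted p = 0.0645 to 0.193). The response to HS was larger than in WT by 0.85 ± 0.20 in CS2 (adjusted p = 0.00675), and in CS3 the difference was 0.42 ± 0.20 (95% interval -0.01 to 0.85, adjusted p = 0.201). The difference between CS2 and CS3 at 1 h was 0.27 ± 0.14 and did not pass (adjusted p = 0.346).

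The remaining calls were close to the threshold. APX2 was higher than in WT by 0.39 ± 0.12 in CS3 (adjusted p = 0.0211), while in CS2 the difference was 0.10 with a 95% interval of -0.15 to 0.34. The CS3 call was lost without CS3 1 h replicate 2, WT 1 h replicate 2 or WT 1 h replicate 3 (0.33 to 0.39, adjusted p = 0.0617 to 0.0858). CAT2 was higher in CS2 by 0.41 ± 0.15 (adjusted p = 0.0466), although its lowest CS2 library at 505 CPM lay below the highest WT library at 506 CPM. This call was lost without CS2 1 h replicate 1 or 2 or any of the WT libraries (0.25 to 0.43, adjusted p = 0.0807 to 0.225). In CS3 the difference of CAT2 was 0.18 (95% interval -0.13 to 0.50). Solyc06g049080.3 was higher in CS2 by 0.35 ± 0.12 (adjusted p = 0.0279), a call lost without CS2 1 h replicate 1 or 2 or WT 1 h replicate 3 (0.26 to 0.32, adjusted p = 0.0863 to 0.138), and in CS3 it differed by 0.28 ± 0.12 (adjusted p = 0.0909).

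For these 3 genes the interaction did not pass in either line. It was 0.53 ± 0.21 in CS2 and 0.32 ± 0.21 in CS3 for CAT2 (adjusted p = 0.0858 and 0.377), 0.42 ± 0.16 and 0.30 ± 0.16 for Solyc06g049080.3 (adjusted p = 0.0737 and 0.254) and 0.19 ± 0.17 and 0.30 ± 0.17 for APX2 (adjusted p = 0.453 and 0.284). Without CS2 1 h replicate 3, CAT2 (0.69, adjusted p = 0.0165) and Solyc06g049080.3 (0.51, adjusted p = 0.0364) passed in CS2, which brought the count there to 4. This library was the deepest at 1 h, with 3669618 counts. Among the CS2 libraries at 1 h it had the lowest CPM of CAT2 (505) and Solyc06g049080.3 (122). How often it was the lowest over all tested genes was not counted, and the part of depth in these values was not tested.

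APX6, APX7, Solyc12g094620.3 and SODCP.2 were called in neither line against WT at 1 h. The 95% intervals of the log2 difference for Solyc12g094620.3 were -0.35 to 0.29 in CS2 and -0.41 to 0.24 in CS3, and for APX7 -0.30 to 0.33 and -0.23 to 0.41. SODCP.2 had 34.8 to 37.4 CPM in CS2 and 42.7 to 58.8 CPM in WT at 1 h, without overlap, but its difference of -0.44 ± 0.29 was not called (95% interval -1.05 to 0.17). It was called with a fit of these 6 libraries alone (-0.48, adjusted p = 0.0339), in which the CS2 calls of CAT2 (0.37, adjusted p = 0.139) and Solyc06g049080.3 (0.31, adjusted p = 0.0751) were lost.

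**Figure D4:**
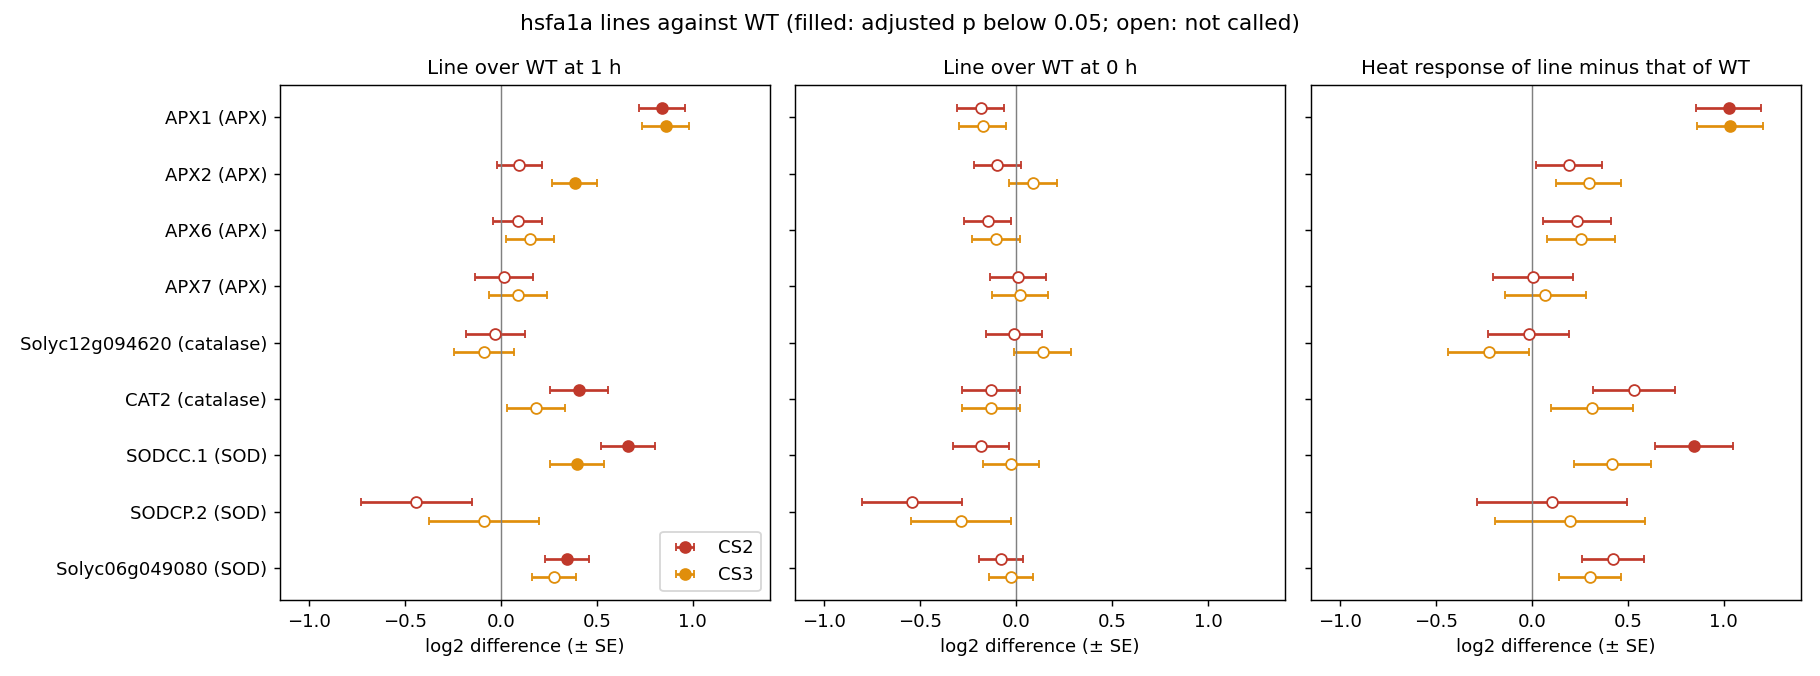
Log2 difference of CS2 and CS3 over WT at 1 h, at 0 h, and of their HS response minus that of WT, each with its SE, for the 9 tested genes; filled points passed an adjusted p of 0.05. APX1 stands at 0.84 and 0.86 at 1 h, at -0.19 and -0.18 at 0 h, and at 1.03 in both lines for the difference of responses.

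The last of the catalases, Solyc04g082460.4 (chromosome 4, 65874017 to 65878683 on the plus strand), had only 13 to 47 counts per library and did not enter the test above. Whether any of these counts came from the gene that overlaps it on the other strand was not tested. Solyc04g082460.4 had 8.69, 7.35 and 7.94 CPM in CS2, 13.2, 7.88 and 6.39 CPM in CS3 and 16.6, 23.9 and 12.7 CPM in WT at 1 h. At 0 h it had 9.11, 8.25 and 5.08 CPM in CS2, 8.24, 14.8 and 6.22 CPM in CS3 and 4.35, 4.43 and 6.996 CPM in WT. WT at 1 h was above WT at 0 h and above CS2 at 1 h in every library, and the 2 times overlapped within each line. In a fit of all 26109 genes with a count, it rose in WT by 1.76 ± 0.36 (log2, adjusted p = 0.000216; 15.8% of these genes were higher), whereas the log2 fold change was 0.04 ± 0.37 in CS2 and -0.11 ± 0.36 in CS3. Its response was smaller than in WT with a difference of -1.72 ± 0.52 for CS2 and -1.87 ± 0.51 for CS3 (adjusted p = 0.0229 and 0.0231; 6.41% and 3.53% of these genes had a smaller response). At 1 h it was lower than in WT in CS2 (-1.18 ± 0.36, adjusted p = 0.0151; 10.6% of these genes were lower), and in CS3 the difference was -0.97 ± 0.36 (adjusted p = 0.0661), which passed without CS3 1 h replicate 1 (-1.32, adjusted p = 0.0303). The interaction calls were lost in CS2 without CS2 0 h replicate 1 or 2, CS2 1 h replicate 2 or WT 1 h replicate 2 (-1.45 to -1.65, adjusted p = 0.0519 to 0.0842), and in CS3 without CS3 0 h replicate 2, CS3 1 h replicate 2 or 3 or WT 1 h replicate 2 (-1.46 to -1.79, adjusted p = 0.05 to 0.0823). The call against WT at 1 h in CS2 was lost without CS2 1 h replicate 2 or 3 or WT 1 h replicate 2 (-0.91 to -1.17, adjusted p = 0.0543 to 0.116).

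Without HS none of the 9 genes was called between a line and WT. With edgeR's quasi-likelihood test 0 of 9 were called in CS2 and 0 of 9 in CS3, against 0.0522% and 0.229% of all tested genes, and DESeq2 also called 0. With edgeR 0 of 9 had an unadjusted p under 0.05 in either line. Among all 15312 tested genes the numbers were 538 for CS2 and 1976 for CS3. The lowest log2 difference was that of SODCP.2 for both lines, -0.54 for CS2 and -0.29 for CS3, and the highest was 0.01 (APX7) for CS2 and 0.14 (Solyc12g094620.3) for CS3. APX1 was at -0.19 (95% interval -0.44 to 0.07) in CS2 and -0.18 (-0.43 to 0.08) in CS3. APX1 and SODCP.2 in CS2 lay below WT at 0 h in every library, but neither was called. How many of all tested genes lay apart in this way was not counted. APX1 had 82.1 to 85.7 CPM in CS2 and 89.7 to 102 CPM in WT. SODCP.2 had 36.4 to 47.7 CPM in CS2 and 55.2 to 78.6 CPM in WT, and its difference was called neither at 0 h nor at 1 h. Between CS2 and CS3 at 1 h, 0 of 9 were called by either tool, against 2.35% of all tested genes with edgeR. Of the 9, 1 had an unadjusted p under 0.05, against 2532 of all 15312 tested genes. It was APX2, at 114 to 141 CPM in CS2 and 144 to 164 CPM in CS3, with a log2 difference of -0.29 ± 0.12 (edgeR quasi-likelihood, unadjusted p = 0.0221, adjusted p = 0.214).

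Across the 18 libraries, which fall into 6 conditions and share their depth, the genes varied in different ways. As a description, Pearson's r of log2 CPM was 0.94 between APX1 and APX2, 0.96 between APX1 and SODCC.1 and 0.97 between CAT2 and Solyc06g049080.3. It was -0.62 between Solyc12g094620.3 and CAT2 and -0.76 between Solyc12g094620.3 and APX1. SODCP.2 had r between -0.39 and 0.09 with each of the other 8 genes. Among all tested genes, the 2 with the pattern most like APX2 were Solyc09g011030.3 (r = 0.99) and Solyc10g078930.2 (r = 0.989).

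Other genes of the ascorbate and peroxide pathway were read from a list chosen by gene symbol, of which 9 could be placed and all 9 were tested. With HS, 7 rose and 1 fell in CS2, 7 rose and 2 fell in CS3, and 5 rose and 1 fell in WT, against 28.7% higher and 26.2% lower among all tested genes in CS2, 26.7% and 26.5% in CS3 and 24.2% and 25.2% in WT. At 1 h, 4 were higher and 0 lower in CS2 than in WT, and 3 were higher and 1 lower in CS3, against 17.8% higher and 15.3% lower among all tested genes for CS2 and 11.9% and 12.4% for CS3. Glutathione reductase GR, which returns glutathione to its reduced form, had 290 to 329 CPM in CS2 and 205 to 299 CPM in CS3 at 1 h, against 163 to 182 CPM in WT, without overlap. At 0 h GR had 165 to 201, 163 to 202 and 191 to 218 CPM in the same order. GR rose with HS by 0.73 ± 0.13 in CS2 and 0.46 ± 0.14 in CS3 (log2, adjusted p = 0.000171 and 0.00772), while in WT its change was -0.27 ± 0.14 (adjusted p = 0.103). With library totals alone the WT change of GR passed (-0.41, adjusted p = 0.0129) and the CS3 change did not (0.28, adjusted p = 0.0727), and the CS3 rise was also lost without CS3 1 h replicate 1 (0.25, adjusted p = 0.112). At 1 h GR was higher than in WT by 0.87 ± 0.14 for CS2 and 0.51 ± 0.14 for CS3 (adjusted p = 8.98e-05 and 0.0106), where the CS3 call was lost without CS3 1 h replicate 1 (0.33, adjusted p = 0.0811).

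AFRR, a monodehydroascorbate reductase that restores ascorbate, had 187 to 273 CPM in CS2 and 184 to 215 CPM in CS3 at 1 h, against 125 to 161 CPM in WT, without overlap. It was higher than WT by 0.70 ± 0.13 in CS2 and by 0.48 ± 0.13 in CS3 (log2, adjusted p = 0.000543 and 0.015), and the CS3 call was lost without CS3 1 h replicate 1 or WT 1 h replicate 3 (0.39 in both, adjusted p = 0.0716 and 0.0841). The other monodehydroascorbate reductase placed, MDHAR, named here after its values were seen, fell with HS by 0.77 ± 0.18 in CS2 and by 0.57 ± 0.18 in CS3 (adjusted p = 0.00139 and 0.0123), while in WT its change was -0.35 ± 0.18 (adjusted p = 0.106). The CS3 call was lost without CS3 0 h replicate 3 or CS3 1 h replicate 2 or 3 (-0.43 to -0.50, adjusted p = 0.0523 to 0.0708), and with library totals alone the WT change passed (-0.49, adjusted p = 0.0251). At 1 h MDHAR was at -0.30 ± 0.19 for CS2 and -0.17 ± 0.19 for CS3 against WT (adjusted p = 0.245 and 0.552).

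GPXle-1, a glutathione peroxidase, rose with HS in all genotypes (1.49 in CS2, 1.12 in CS3 and 0.70 in WT). It was higher than WT at 1 h by 0.77 ± 0.13 in CS2 and by 0.46 ± 0.14 in CS3 (adjusted p = 0.00026 and 0.0186), with the CS3 call lost without CS3 1 h replicate 1 or 3 or WT 1 h replicate 1 or 3 (0.41 to 0.43, adjusted p = 0.0568 to 0.0819). The other glutathione reductase, GR1, fell with HS by 0.51 ± 0.14 in CS3 and by 0.48 ± 0.14 in WT, was at 0.06 ± 0.13 in CS2, and was higher than WT at 1 h in CS2 by 0.60 ± 0.14 (adjusted p = 0.00295). For CS3 the difference of GR1 from WT at 1 h was 0.07 and did not pass (adjusted p = 0.768).

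AOX1a encodes an alternative oxidase of mitochondria, which passes electrons to oxygen outside the cytochrome path. It had 155 to 248 CPM in CS2 and 169 to 192 CPM in CS3 at 1 h, against 244 to 309 CPM in WT, and CS2 overlapped with WT. It rose with HS in all genotypes (0.74 in CS2, 0.89 in CS3 and 1.26 in WT), though not in CS2 without CS2 1 h replicate 1 (0.50, adjusted p = 0.0712). At 1 h its difference from WT was -0.63 ± 0.22 in CS3 (adjusted p = 0.0395), a call lost without any one of the 6 libraries compared (adjusted p = 0.0517 to 0.119), and -0.51 ± 0.22 in CS2 (adjusted p = 0.0781), which passed without CS2 1 h replicate 1 (-0.72, adjusted p = 0.021). The CS2 difference also passed without a filter on low counts (-0.55, adjusted p = 0.0315) and in a fit of the compared libraries only (-0.54, adjusted p = 0.0301). With the correction for removed duplicates it was -0.59 (adjusted p = 0.0499). In the other alternatives it did not pass (adjusted p of up to 0.0806). The iron SOD gene FESOD rose by 0.82 ± 0.19 in CS2, 0.80 ± 0.19 in CS3 and 0.63 ± 0.19 in WT (adjusted p = 0.00156, 0.00202 and 0.0112), with the WT call lost without WT 0 h replicate 2 (0.55, adjusted p = 0.0502). The dehydroascorbate reductases DHAR1 and DHAR2 rose by 0.36 to 0.51 and by 0.36 to 0.45 (adjusted p = 0.0058 to 0.0426 and 0.00591 to 0.0214). With library totals alone DHAR1 was not called in CS3 (0.18, adjusted p = 0.252) or WT (0.28, adjusted p = 0.0853), nor DHAR2 in CS2 (0.17, adjusted p = 0.192), and leaving out 1 library ended the DHAR1 call in each genotype and the DHAR2 call in CS2 and CS3 (adjusted p = 0.0536 to 0.143). FESOD, DHAR1 and DHAR2 were called in neither line against WT at 1 h.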

How the data were processed

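One table of counts was used, with 18 libraries of 1 × 75 bases in 6 conditions. The table and labels hold 3 replicates each, whereas the paper's methods state 2 biological replicates; all 3 were used as replicates, so n = 3 and the p-values rest on the table. The counts deposited by the authors are unnormalized integers, 1 value for each gene and library. Per the submitters' processing notes and the table's header, reads were trimmed (Trimmomatic 0.38), aligned (Bowtie2 2.3.5; the paper's methods name STAR), filtered with SAMtools 1.9, freed of PCR duplicates, and counted over whole gene spans of the M82 annotation with featureCounts 2.0.0 (reverse strand, mapping quality of at least 30, multiple alignments and overlaps counted). The length column deposited by the authors holds the gene span in bases. All columns were used.

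A gene was tested when 2 or more libraries reached 50 counts (15312 of 35821), with edgeR 4.0.16 (R 4.3.3, limma 3.58.1), quasi-likelihood, TMM, one fit of 6 conditions, no covariates, Benjamini-Hochberg over all tested genes, threshold 0.05. The test was also run on simulated counts. In that run a small set of genes was changed in CS2 at 1 h only, so it does not cover an HS response in all genotypes. The ± values beside log2 values are standard errors. DESeq2 1.42.0, other scalings and filters, fewer libraries, the replicate number as block and a correction for removed duplicates were alternatives. Comparisons between genes use the gene span, because coding lengths were not available to the analysis, and lists use gene symbols instead of descriptions for the same reason. RefSeq symbols were placed on rows by neighbouring genes within 60000 bases (200000 where this failed, added after seeing the first result), accepted where the matched neighbours were no fewer than the unmatched and the next best row had at least 2 fewer. All 10 genes are named. Others are list genes called in the WT heat response or in either line against WT at 1 h. Named as well are the 2 tested genes most like APX2, which had the largest WT response. The genes and lists were chosen with earlier results of these data known. Whether replicates were separate harvests is not stated beyond the pooling of seedlings, so p-values measure the spread between these libraries. Library totals of 1713285 to 3669618 counts limit what can be seen in genes with few counts.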

Additional observations from a re-analysis of the deposited data

Results flagged for a closer look

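For some genes the heat response of a line differed from that of WT in the test of the difference itself (edgeR quasi-likelihood, Benjamini-Hochberg adjustment, log2 scale). APX1 had a larger response in CS2 (1.03 ± 0.17, adjusted p = 0.000461). In CS3 it was also larger (1.03 ± 0.17, adjusted p = 0.00111). SODCC.1 had a larger response in CS2 (0.85 ± 0.20, adjusted p = 0.00675). The catalase Solyc04g082460.4, tested only in the fit without a filter on low counts, had a smaller response, at -1.72 ± 0.52 for CS2 and -1.87 ± 0.51 for CS3 (adjusted p = 0.0229 and 0.0231), and both calls were lost when single libraries were left out (adjusted p of up to 0.0842 and 0.0823). Of the other genes of the pathway, GR had a larger response, by 1.01 ± 0.19 for CS2 and 0.74 ± 0.19 for CS3 (adjusted p = 0.00125 and 0.0203), and the CS3 value did not pass without CS3 1 h replicate 1, WT 0 h replicate 3 or WT 1 h replicate 3 (0.54 to 0.70, adjusted p = 0.0555 to 0.0588). AFRR (0.83 ± 0.19, adjusted p = 0.00474), GPXle-1 (0.79 ± 0.19, adjusted p = 0.00771) and GR1 (0.54 ± 0.19, adjusted p = 0.0498) had a larger response in CS2. The value of GR1 did not pass in DESeq2 (0.55, adjusted p = 0.0727) or without a filter on low counts (0.49, adjusted p = 0.144), nor without any single library other than CS2 0 h replicate 3 and WT 0 h replicate 2 (0.44 to 0.58, adjusted p of 0.0585 to 0.12). In CS3 the difference of responses was 0.45 for AFRR, 0.42 for GPXle-1 and -0.03 for GR1, and none passed (adjusted p = 0.135, 0.179 and 0.946). Of the 9 other pathway genes, 4 had a larger response in CS2 and 1 in CS3, against 10.4% and 4.96% of all tested genes. Groups of 3 libraries were too small for a search of single outlying values.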

How the results depend on the processing

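No called value of the 9 tested genes changed sign under the alternatives. The HS comparisons kept their counts within 1.5 times; leaving out 1 library at a time gave 6 to 7 called genes in CS2, 7 to 8 in CS3 and 3 to 6 in WT. Against WT at 1 h, the counts were 2 in CS2 and 1 in CS3 without a filter on low counts, 2 in CS2 with filterByExpr, and 2 to 4 in CS2 and 1 to 3 in CS3 with 1 library left out. The cause was not tested. The interaction counts were 2 to 4 in CS2 and 1 in CS3 with 1 library left out, and 4 in CS2 without both CS3 0 h replicate 2 and CS2 1 h replicate 3, an alternative chosen after seeing the data, as were the fits of Solyc04g082460.4 without a filter. At 0 h, genes called in the whole table numbered 8 in CS2 and 35 in CS3, against 25 and 128 in DESeq2, 35 and 97 without a filter, and, for CS3, 23 with library totals alone and 1 in a fit of those libraries only.

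Same-numbered libraries did not deviate together in every pair (r of -0.195 to 0.38), and the closest library had the same number for 0 to 4 of 6 libraries per comparison, so the numbers were not used as pairs. With the replicate number as a block, 3 genes were called in CS2 and 2 in CS3 against WT at 1 h, in place of 4 and 3, without CAT2 in CS2 (0.40, adjusted p = 0.0652) and SODCC.1 in CS3 (0.40, adjusted p = 0.0523); no other call of the 9 genes changed under the block. Depth limits the genes with few counts, above all Solyc04g082460.4 and SODCP.2.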
